A study of Homo sapiens with 12 samples.

Results

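The 10 genes described here encode integrin subunits: the alpha chains ITGA2, ITGA3, ITGA5, ITGA6, ITGA10 and ITGAV and the beta chains ITGB1, ITGB3, ITGB4 and ITGB8. They were taken by name from the 18417 genes that had a probe set with 1 gene symbol on the array, among which 25 were integrin subunits. Each of the 10 had exactly 1 such probe set, so no choice between probe sets was needed. Integrins are receptors made of 1 alpha and 1 beta chain, which bind matrix proteins outside the cell and link them to the cytoskeleton inside. The alpha chain largely sets which ligand is bound, and a beta chain such as ITGB1 can pair with many alpha chains. Endothelial cells use integrins to hold on to their basement membrane, to move and to survive.

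The samples were EA.hy 926 cells, a human hybrid line derived from umbilical vein endothelial cells and the lung carcinoma line A549. Lo cells exposed to pemetrexed and Lo control cells had been adapted to Medium 199 with 23 nM folic acid. Hi cells exposed to pemetrexed and Hi control cells were parallel cultures in the same medium with folic acid raised to 9 uM. Pemetrexed, an antifolate drug, was given to confluent cultures at 0.5 uM for 48 h, 24 h after a medium change, and all 4 groups received 10% fetal calf serum. Each group had 3 arrays labelled as biological replicates. The labels do not say that these came from separately adapted cultures, so p-values measure the spread between these samples, and whatever else set the adapted culture apart enters the comparison of folate levels too.

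Values are log2 expression after the authors' RMA normalization, a scale on which a difference of 1 is 2-fold. Two-sided tests came from 1 limma model over all genes, with genes counted as called below 0.05 after Benjamini-Hochberg adjustment. Errors after a difference are standard errors (SE) of that model. Levels of different genes come from different probes and are not set against each other. The arrays labelled Lo control replicate 3 and Hi control replicate 3 stood apart from the other arrays of their labels. On the first principal component, which held 61.1% of the variance, the array labelled Lo control replicate 3 scored -19.3, beside 7.18 and 6.75 for the other Lo controls. For Hi controls the third array scored 8.94 and the others -20.1 and -17.8. Across genes the array labelled Lo control replicate 3 had a mean correlation of 0.992 with the other Lo controls and 0.996 with the Hi controls. The array labelled Hi control replicate 3 had 0.990 with the other Hi controls and 0.995 with the Lo controls. Whether these samples were exchanged was not tested, and if they were, the 12-array values that use the controls mix both folate levels. Both kept their labels in the tests on 12 arrays, and the members' results are also given on the 10 arrays without them. Both were picked by their expression in these same data, and p-values on the 10 arrays do not account for that choice.

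The cell line was checked against markers of both parents, with 12 endothelial and 10 epithelial and lung carcinoma genes measured. The junctional cadherin CDH5 had values from 11.98 to 12.36 in Lo pemetrexed arrays, 12.53 to 12.73 in Lo control arrays, 12.64 to 12.83 in Hi pemetrexed arrays and 12.43 to 12.86 in Hi control arrays. Among the endothelial markers CLDN5 lay between 7.55 and 7.97 over the 12 arrays and VWF between 6.68 and 9.71. Among the epithelial markers the keratin KRT7 lay between 11.82 and 12.45, KRT8 between 11.55 and 12.07 and KRT18 between 11.50 and 11.93. The cadherin CDH1 lay between 5.45 and 5.89 and the lung factor NKX2-1 between 5.51 and 5.79. Without detection calls, no level can be set below which a gene is absent.

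**Figure D1:**
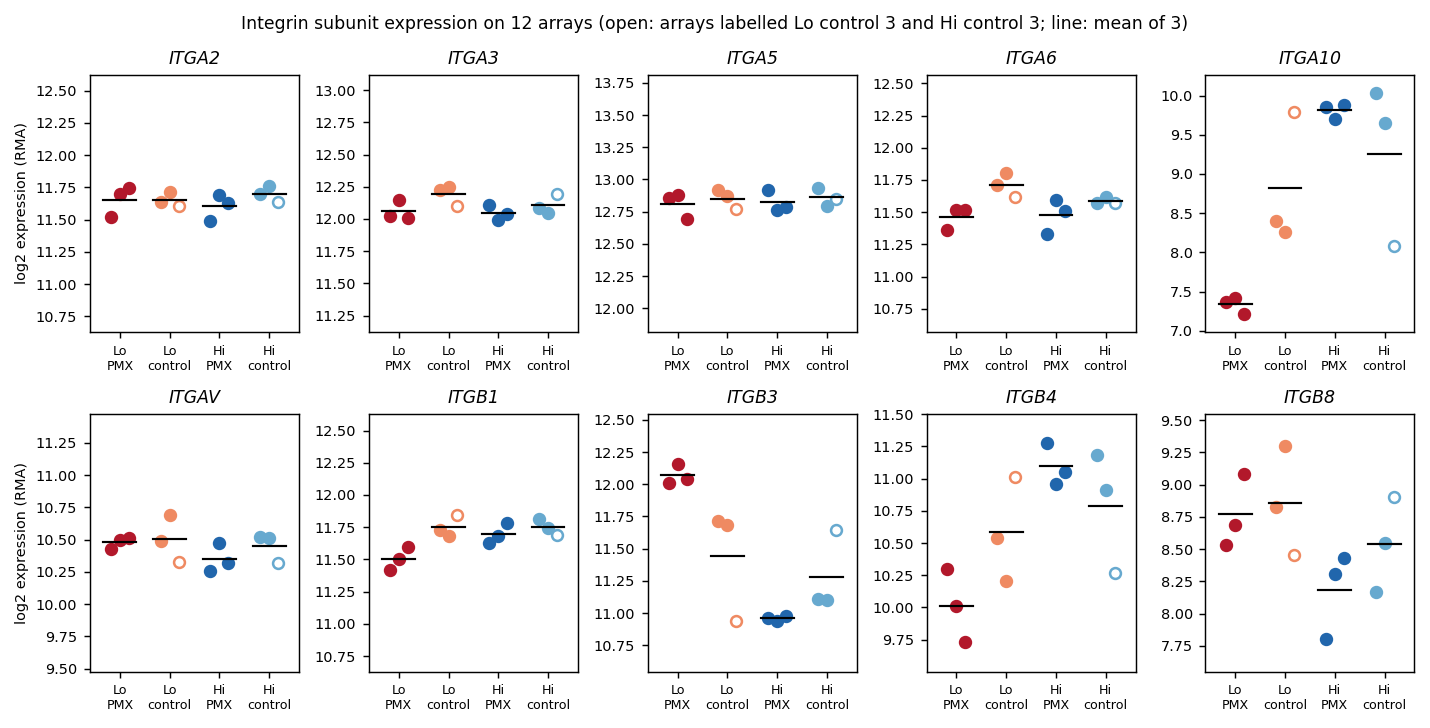
Log2 expression of the 10 integrin genes on each array (vertical axes, log2 after RMA, each spanning at least 2 units), by group from Lo pemetrexed (PMX) to Hi control. Points are arrays, lines are means of 3 and open points are the arrays labelled Lo control replicate 3 and Hi control replicate 3. ITGA10, ITGB3 and ITGB4 separate Lo pemetrexed from Hi pemetrexed arrays, while ITGA2, ITGA3 and ITGA5 spread over less than 0.3 on all 12 arrays.

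Whether integrin expression differed with folate level under the drug was examined by Lo pemetrexed against Hi pemetrexed arrays, a comparison that holds neither of the 2 arrays out of place. ITGA10 and ITGB4 were lower in treated Lo cells and ITGB3 was higher, and the other 7 subunits did not pass the test. Thus 3 of the 10 members were called, 1 higher and 2 lower, where 22.3% of all genes were called in this comparison. On the 10 arrays 4 were called, with ITGB8 as a second higher gene, where 27.7% of all genes were called. The median difference of the 10 members was 0.00, and that of all genes 0.01.

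ITGA10 encodes the alpha chain of a collagen receptor that pairs with ITGB1 and is best known from cartilage. Its values were 7.37, 7.42 and 7.22 in Lo pemetrexed arrays, against 9.85, 9.71 and 9.87 in Hi pemetrexed arrays. All 3 treated Lo arrays lay more than 2 log2 units below every treated Hi array, and the groups did not overlap. The difference was -2.47 ± 0.44 (SE), or 5.56-fold lower in treated Lo cells (limma, Benjamini-Hochberg adjusted p = 0.00190, 95% confidence interval on the log2 scale from -3.43 to -1.51). By size it ranked 31 of the 18417 genes in this comparison. With 10 arrays the difference is the same by construction, with an SE of 0.10 (limma adjusted p = 1.17e-08).

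The start of the ITGA10 gene is shown because this member differed most, beside the starts of ITGB8, whose difference had the other sign, and of ITGB1, its partner chain, which was not called here. RefSeq promoter windows of build GRCh38.p14 cover 250 bases before to 50 after an annotated start. They were matched for 7 of the 10 members, those other than ITGA3, ITGB3 and ITGB4. Capitals mark CpG dinucleotides, the sites that carry most DNA methylation in human cells.
ITGA10, chr1:145910001-145910300, minus strand: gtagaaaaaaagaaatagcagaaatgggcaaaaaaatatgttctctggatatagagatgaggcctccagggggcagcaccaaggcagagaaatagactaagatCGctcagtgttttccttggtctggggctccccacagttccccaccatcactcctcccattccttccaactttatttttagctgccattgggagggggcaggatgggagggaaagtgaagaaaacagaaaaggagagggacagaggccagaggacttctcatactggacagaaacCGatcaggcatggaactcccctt
ITGB8, chr7:20330650-20330949, plus strand: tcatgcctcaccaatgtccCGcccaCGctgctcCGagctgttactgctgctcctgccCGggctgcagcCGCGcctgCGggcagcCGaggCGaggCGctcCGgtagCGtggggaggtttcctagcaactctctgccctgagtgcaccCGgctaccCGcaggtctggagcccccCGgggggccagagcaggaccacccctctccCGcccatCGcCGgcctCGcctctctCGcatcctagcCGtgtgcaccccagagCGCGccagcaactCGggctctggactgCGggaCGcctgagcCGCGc
ITGB1, chr10:32958181-32958480, minus strand: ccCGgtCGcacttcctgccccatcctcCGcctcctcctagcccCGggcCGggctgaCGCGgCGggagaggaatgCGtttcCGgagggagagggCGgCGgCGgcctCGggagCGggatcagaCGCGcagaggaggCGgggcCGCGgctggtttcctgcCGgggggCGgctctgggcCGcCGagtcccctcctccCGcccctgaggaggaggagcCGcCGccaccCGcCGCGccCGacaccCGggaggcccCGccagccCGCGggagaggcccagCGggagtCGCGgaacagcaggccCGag

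The ITGA10 window held 2 CpG dinucleotides and 48.7% G and C bases. The ITGB8 window held 28 CpG dinucleotides and the ITGB1 window 39. A second annotated ITGB1 start, not shown, had a window with 4 CpG dinucleotides, 40.7% G and C bases, no GGGCGG and 3 TATAAA matches on either strand, of which 2 overlap. Over all 35116 windows of the same length, of which each gene can have more than 1, the median was 14 CpG dinucleotides and 58.7% G and C bases, and 18.2% of the windows had 2 or fewer. The letters GGGCGG on either strand, a core of SP1 sites, occurred at 2 places in the ITGB8 window, at 3 in the ITGB1 window and at none in the ITGA10 window, and 45% of all windows held them. The TATA box letters TATAAA, also sought on either strand, were in none of these 3 windows and in 11.5% of all. The same held for an AP-1 site, TGANTCA, in 7.71% of all windows, for an E-box, CACGTG, in 7.26%, and for an NF-kB consensus in 1.4%. Each GGGCGG holds 1 of the CpG dinucleotides counted above. These matches describe letters in 1 window a gene, and methylation was not measured.

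ITGB3 encodes the beta chain that joins ITGAV in the vitronectin receptor, which also binds fibronectin, osteopontin and other proteins with an RGD sequence. Its values were 12.01, 12.15 and 12.04 in Lo pemetrexed arrays, against 10.97, 10.94 and 10.98 in Hi pemetrexed arrays. Every treated Lo array was about 1 log2 unit above every treated Hi array. The difference was 1.11 ± 0.19 (SE), or 2.15-fold higher in treated Lo cells (limma, Benjamini-Hochberg adjusted p = 0.00134), with an SE of 0.06 on the 10 arrays (limma adjusted p = 1.72e-07). Its partner ITGAV had 10.43, 10.50 and 10.52 in Lo pemetrexed arrays, against 10.26, 10.47 and 10.32 in Hi pemetrexed arrays. These groups overlapped, and the ITGAV difference of 0.13 ± 0.10 was not called (limma adjusted p = 0.426, 95% confidence interval from -0.08 to 0.34).

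ITGB4 encodes the long beta chain that pairs with ITGA6 in the laminin receptor of hemidesmosomes. Its values were 10.30, 10.01 and 9.73 in Lo pemetrexed arrays, against 11.27, 10.96 and 11.05 in Hi pemetrexed arrays. No array of one group reached the other, although the spread within treated Lo cells was wide, at 0.28 (SD, n = 3) against 0.16 (SD, n = 3) in treated Hi cells. The difference was -1.08 ± 0.24 (SE), or 2.12-fold lower in treated Lo cells (limma, Benjamini-Hochberg adjusted p = 0.00603), with an SE of 0.14 on the 10 arrays (limma adjusted p = 0.000124). ITGA6, its only known alpha partner, had 11.36, 11.52 and 11.51 in Lo pemetrexed arrays, against 11.33, 11.60 and 11.51 in Hi pemetrexed arrays. The groups overlapped throughout, with a difference of -0.01 ± 0.08 (limma adjusted p = 0.942, 95% confidence interval from -0.19 to 0.17).

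ITGB8 encodes a beta chain that pairs with ITGAV and is known for activating latent TGF-beta. Its values were 8.54, 8.69 and 9.09 in Lo pemetrexed arrays, against 7.80, 8.31 and 8.43 in Hi pemetrexed arrays. The groups did not overlap, but the gap between them was small beside the spread within each. The difference of 0.59 ± 0.24 was not called on 12 arrays (limma adjusted p = 0.104). It passed on the 10 arrays, at 0.59 ± 0.19 (limma adjusted p = 0.0356).

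The remaining chains showed small differences between treated Lo and treated Hi cells. ITGB1, the partner of ITGA2, ITGA3, ITGA5, ITGA6, ITGA10 and ITGAV, had 11.42, 11.50 and 11.60 in Lo pemetrexed arrays, against 11.63, 11.68 and 11.78 in Hi pemetrexed arrays. The groups did not overlap, by a gap smaller than the spread within either, and the difference of -0.19 ± 0.08 was not called (limma adjusted p = 0.0929). ITGA2 (0.05 ± 0.08), a collagen receptor chain, ITGA3 (0.01 ± 0.07), a laminin receptor chain, and ITGA5 (-0.01 ± 0.08), the chain of the main fibronectin receptor, were not called either. Their 95% confidence intervals spanned 0.92-fold to 1.17-fold for ITGA2, 0.90-fold to 1.13-fold for ITGA3 and 0.88-fold to 1.11-fold for ITGA5.

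With the replicate number as a block on the 10 arrays, ITGB1 also passed in this comparison, at -0.19 ± 0.06 (limma adjusted p = 0.0256), which made 5 of the 10 members called, where 35.6% of all genes were. On these 10 arrays the deviations of same-numbered samples from their group means correlated at 0.115 to 0.543 across genes, with only 2 arrays in each control group. ITGA10, ITGB3 and ITGB4 were called in this comparison under each of the 21 other settings run, which included leaving out each array in turn. Their highest adjusted p-values there were 0.0223 for ITGA10, 0.0160 for ITGB3 and 0.0389 for ITGB4 (limma).

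**Figure D2:**
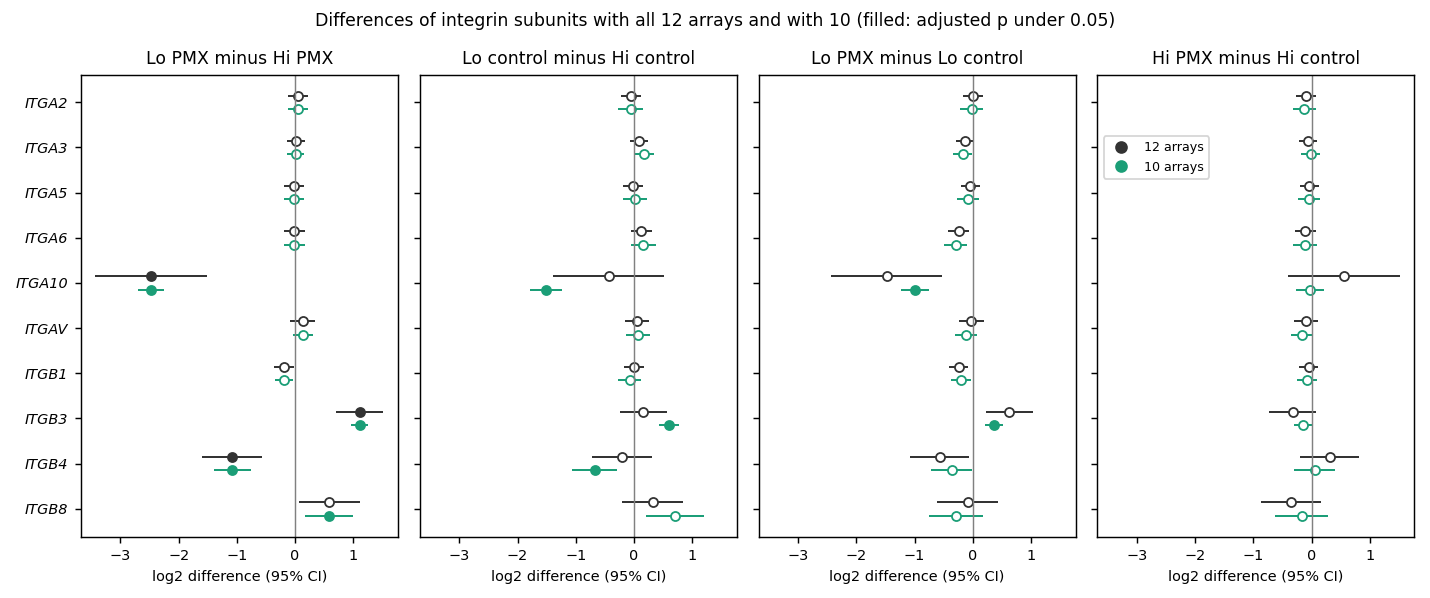
Log2 difference of each integrin gene (horizontal axes, with 95% confidence intervals) for Lo against Hi under pemetrexed, Lo against Hi controls, pemetrexed in Lo cells and pemetrexed in Hi cells. Black points use 12 arrays and green points the 10 arrays without the 2 controls out of place, and filled points have an adjusted p under 0.05. ITGA10 (-2.47), ITGB3 (1.11) and ITGB4 (-1.08) are filled in the first panel with either set, and no point is filled in the last.

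Whether low folate alone went with other integrin levels was examined by Lo control against Hi control arrays. With all 12 arrays 0 of the 10 members were called, and 0% of all genes, with 387 genes at an unadjusted p under 0.05. Both arrays out of place enter this comparison, 1 on each side. They were found by their expression, on a component along which the other Lo and Hi arrays lie apart. Leaving them out therefore favours a difference in this comparison. Without them ITGA10 and ITGB4 were lower and ITGB3 was higher in Lo controls, so 3 of the 10 members were called, where 7.17% of all genes were. With the replicate block on these arrays 4 were called, ITGB8 among them at 0.71 ± 0.09 (limma adjusted p = 0.000325), where 13.2% of all genes were.

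ITGA10 had 8.40 and 8.26 in the Lo control arrays labelled replicates 1 and 2 and 9.79 in the third, against 10.03 and 9.65 in the Hi control arrays labelled replicates 1 and 2 and 8.08 in the third. The array labelled Lo control replicate 3 therefore lay at the level of the other Hi controls, and the array labelled Hi control replicate 3 below both other Lo controls. The difference was -0.44 ± 0.44 on 12 arrays (limma adjusted p = 1.00) and -1.51 ± 0.12, or 2.85-fold lower in Lo controls, on 10 arrays (limma adjusted p = 2.44e-05).

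ITGB3 had 11.71, 11.69 and, in the third array, 10.94 in Lo controls, against 11.11, 11.10 and, in the third, 11.64 in Hi controls. Again the third array of each label lay with the other label. The difference was 0.16 ± 0.19 on 12 arrays (limma adjusted p = 1.00) and 0.60 ± 0.08 on 10 arrays (limma adjusted p = 0.000650).

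ITGB4 had 10.54, 10.20 and, in the third array, 11.01 in Lo controls, against 11.18, 10.91 and, in the third, 10.27 in Hi controls. Its difference was -0.20 ± 0.24 on 12 arrays (limma adjusted p = 1.00) and -0.67 ± 0.18 on 10 arrays (limma adjusted p = 0.0396). ITGB8 had 8.83, 9.30 and 8.45 in Lo controls, against 8.16, 8.55 and 8.91 in Hi controls, and without the third arrays its difference of 0.71 ± 0.23 was not called without the block (limma adjusted p = 0.102). The remaining 6 members differed by between -0.08 and 0.17 on the 10 arrays and were not called.

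Lo pemetrexed arrays were next set against Lo control arrays, to ask how integrin genes responded to the drug in low folate. None of the 10 members was called with all 12 arrays, where 10.7% of all genes were. ITGA10 (limma adjusted p = 0.0507) and ITGB3 (limma adjusted p = 0.0508) lay just outside the threshold. Both were called on the 10 arrays, ITGA10 lower and ITGB3 higher, that is 2 of 10 members where 11% of all genes were. The median of the 10 members was -0.11 on 12 arrays and -0.19 on 10 arrays, and that of all genes 0.02 and 0.03.

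For ITGA10 the 3 Lo pemetrexed values of 7.22 to 7.42 lay below every Lo control value, the lowest of which was 8.26. The difference was -1.48 ± 0.44 on 12 arrays and -0.99 ± 0.11, or 1.99-fold lower with pemetrexed, on 10 arrays (limma adjusted p = 0.000159). For ITGB3 the 3 Lo pemetrexed values of 12.01 to 12.15 lay above every Lo control value, the highest of which was 11.71. The difference was 0.62 ± 0.19 on 12 arrays and 0.37 ± 0.07, or 1.29-fold higher with pemetrexed, on 10 arrays (limma adjusted p = 0.00560). The array labelled Lo control replicate 3, at 9.79 for ITGA10 and 10.94 for ITGB3, widened both differences on 12 arrays.

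Among the other members, ITGB1 differed by -0.25 ± 0.08 (limma adjusted p = 0.0586) and ITGA6 by -0.24 ± 0.08 (limma adjusted p = 0.0851) on 12 arrays. For both genes all 3 Lo pemetrexed arrays lay below all 3 Lo control arrays. With the replicate block on the 10 arrays 6 of the 10 members were called, where 18.4% of all genes were. These were ITGB3, which was higher, and ITGA10 (-0.98 ± 0.10), ITGB8 (-0.43 ± 0.09), ITGA6 (-0.31 ± 0.07), ITGB4 (-0.28 ± 0.09) and ITGB1 (-0.24 ± 0.07), which were lower, with the limma adjusted p nearest the threshold at 0.0488 for ITGB4. ITGA2 (0.00 ± 0.08), ITGA5 (-0.04 ± 0.08), ITGAV (-0.02 ± 0.10) and ITGA3 (-0.13 ± 0.07) were not called in any of these 3 fits. On 12 arrays their 95% confidence intervals lay between 0.82-fold and 1.14-fold.

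In folate-replete cells the integrins were examined by Hi pemetrexed against Hi control arrays, and 0 of the 10 members were called on 12 or on 10 arrays. Limma called 0% of all genes there, with 266 genes at an unadjusted p under 0.05 on 12 arrays and 335 on 10 arrays. ITGA10 differed by 0.56 ± 0.44 on 12 arrays and by -0.03 ± 0.11 on 10 arrays. Its 95% confidence interval on 10 arrays spanned 0.83-fold to 1.16-fold. ITGB3 differed by -0.32 ± 0.19 on 12 arrays and by -0.14 ± 0.07 on 10 arrays, and ITGB4 by 0.31 ± 0.24 and 0.05 ± 0.16. The remaining 7 members differed by between -0.36 and -0.04 on 12 arrays. The median of the 10 members was -0.08 on 12 arrays and -0.10 on 10 arrays, and that of all genes -0.0015 and -8e-05. A median below that of all genes was thus not particular to Lo cells. With the replicate block ITGB8 differed by -0.32 ± 0.09 in Hi cells, which was not called (limma adjusted p = 0.830).

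Whether the response differed between Lo and Hi cells was tested as an interaction, in which the difference made by pemetrexed in Hi cells was subtracted from that in Lo cells. With all 12 arrays 0 of the 10 members were called, where 4.81% of all genes were. ITGA10 and ITGB3 were called on the 10 arrays, 2 of 10 where 4.16% of all genes were, and the same 2 with the replicate block, where 9.44% of all genes were. For ITGA10 the interaction was -2.04 ± 0.63 on 12 arrays (limma adjusted p = 0.0858) and -0.96 ± 0.16 on 10 arrays (limma adjusted p = 0.00523). For ITGB3 it was 0.94 ± 0.26 on 12 arrays (limma adjusted p = 0.0617) and 0.51 ± 0.10 on 10 arrays (limma adjusted p = 0.0151). ITGB4, at -0.41 ± 0.23 on 10 arrays, was not called (limma adjusted p = 0.460), nor with the block (limma adjusted p = 0.0542).

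Across the 4 groups on 10 arrays, ITGA10 was lowest in Lo pemetrexed arrays, with a mean of 7.34, followed by Lo controls at 8.33, Hi pemetrexed arrays at 9.81 and Hi controls at 9.84. The last 2 did not differ beyond their spread. ITGB3 ran the other way, at 12.07 in Lo pemetrexed arrays, 11.70 in Lo controls, 10.96 in Hi pemetrexed arrays and 11.10 in Hi controls, where again the last 2 were not called different. ITGB4 stood at 10.01 in Lo pemetrexed arrays, 10.37 in Lo controls, 11.09 in Hi pemetrexed arrays and 11.05 in Hi controls, and neighbours within a folate level were not called different without the block. ITGB8 had means of 8.77 in Lo pemetrexed arrays, 9.06 in Lo controls, 8.18 in Hi pemetrexed arrays and 8.36 in Hi controls. The 4 group means of the other 6 members spanned at most 0.29.

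**Figure D3:**
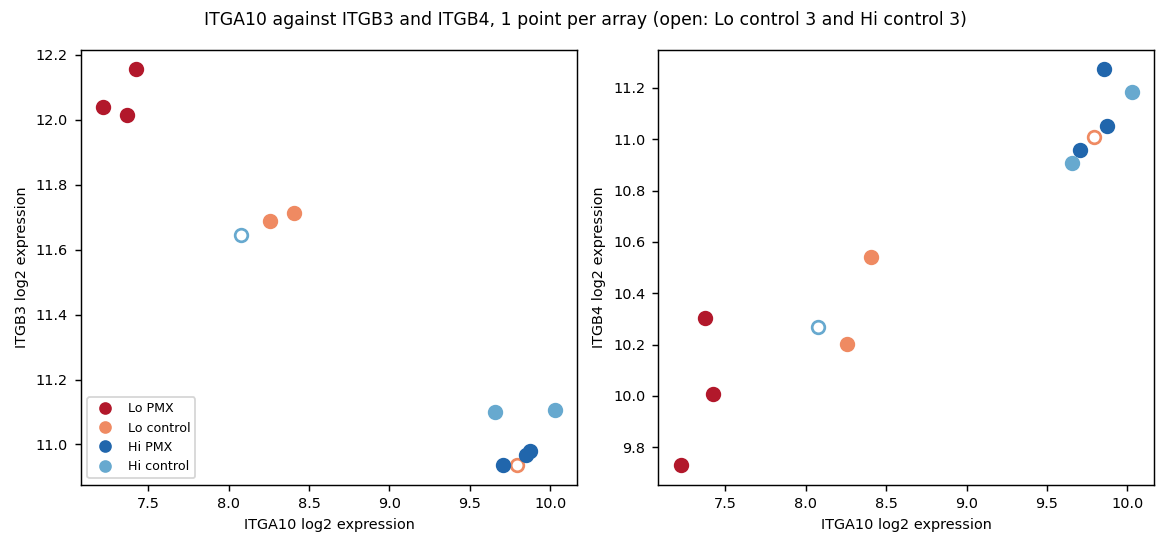
Log2 expression of ITGA10 (horizontal axes) against ITGB3 and ITGB4 (vertical axes), 1 point per array, coloured by group from Lo pemetrexed (PMX) to Hi control, with the arrays labelled Lo control replicate 3 and Hi control replicate 3 as open points. The arrays fall into 3 clusters, at about 7.3, 8.3 and 9.8 for ITGA10, and each open point lies in the cluster of the other folate level.

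The genes whose pattern over the 12 arrays was nearest to that of a member were found by the root mean square difference of values centred on each gene's mean. For ITGA10 these were ABCA8 (0.20), LRRC70 (0.21) and PPP1R16B (0.22 log2 units). For ITGB3 they were GPR155 (0.07), SGK1 (0.08) and MR1 (0.08), and for ITGB4 they were IRAK2 (0.07), DOCK6 (0.10) and ARRB1 (0.10). For ITGB8 they were SLC26A2, PYROXD1 and OXCT1, at 0.12 to 0.13. The arrays share the out-of-place samples, which enter these likenesses.

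Genes beside ITGA10, ITGB3 and ITGB4 on their chromosomes, in RefSeq order, were looked at after their values had been seen. Of the 6 nearest measured protein-coding genes of each, 3 on either side, 1 was called between treated Lo and treated Hi cells on 12 and on 10 arrays, or 3 of 18 in all, where 22.3% and 27.7% of all genes were. Beside ITGA10 on chromosome 1 it was NUDT17, at -0.37 ± 0.08 (limma adjusted p = 0.00619). Beside ITGB3 on chromosome 17 it was CDC27 at -0.25 ± 0.08, and beside ITGB4 on the same chromosome SAP30BP at 0.25 ± 0.08. None of the 18 neighbours differed by as much as the integrin gene they flank.

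Of 15 other integrin subunits that were measured, 3 were called between treated Lo and treated Hi cells on 12 arrays, 1 higher and 2 lower, where 22.3% of all genes were. ITGA11, which like ITGA10 encodes a collagen-binding partner of ITGB1, was lower by -0.88 ± 0.20 (limma adjusted p = 0.00717). ITGB5, a further partner of ITGAV, was lower by -0.54 ± 0.10, and the leukocyte integrin chain ITGAX was higher by 0.75 ± 0.16. In Lo cells ITGB5 and ITGA4 were lower with pemetrexed, at -0.40 ± 0.10 and -0.40 ± 0.11 (limma adjusted p = 0.0210 and 0.0305), 2 of 15 called where 10.7% of all genes were. With the replicate block on the 10 arrays 4 of 15 were called, where 18.4% of all genes were. The median difference of these 15 genes was 0.02 between treated Lo and treated Hi cells, against 0.01 for all genes.

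Ligands of the integrins differed in both directions between treated Lo and treated Hi cells. Of 20 genes for RGD and matricellular ligands 9 were called, 6 higher and 3 lower, where 22.3% of all genes were. Proteins that ITGB3 with ITGAV can bind were encoded on both sides. Examples are SPP1 and FN1 among the higher and VWF, THBS1 and EDIL3 among the lower genes. These examples are not all of its ligands and do not show which side held more. Osteopontin (SPP1) had 8.99, 9.52 and 9.45 in Lo pemetrexed arrays, against 6.03, 6.33 and 6.98 in Hi pemetrexed arrays, a difference of 2.87 ± 0.74 (limma adjusted p = 0.0146). Fibronectin (FN1) had 12.06, 12.10 and 11.84 in Lo pemetrexed arrays, against 10.94, 10.80 and 10.83 in Hi pemetrexed arrays, a difference of 1.14 ± 0.23 (limma adjusted p = 0.00358). For both genes every treated Lo array was above every treated Hi array. The matricellular genes CCN2 (1.73 ± 0.43) and CCN1 (0.87 ± 0.28) were also higher. So was the cytokine gene TGFB2 (0.99 ± 0.20), which is counted in the list but not described here as an RGD ligand. Von Willebrand factor (VWF, -2.46 ± 0.62), which is also on the endothelial list below, thrombospondin 1 (THBS1, -0.41 ± 0.06) and EDIL3 (-0.54 ± 0.10) were lower. Between Lo and Hi controls 5 of the 20 were called on the 10 arrays, where 7.17% of all genes were, and 0 on 12 arrays. The 5 were VWF, CCN2, SPP1, CCN1 and FN1, each in the same direction as between treated cells.

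Of 11 laminin and nidogen genes, a list with ligands of ITGA3, ITGA6 and ITGB4, 7 were called between treated Lo and treated Hi cells. Of these 2 were higher and 5 lower, where 22.3% of all genes were called. The median of the list was -0.29, beside 0.01 for all genes. The type IV collagen genes COL4A1 to COL4A6 are counted with the collagens below, and none of them was called on 12 arrays. LAMA4 (-0.63 ± 0.11) and LAMB1 (-0.40 ± 0.07), chains of vascular laminins, and the laminin-binding protein NID1 (-0.69 ± 0.13) were lower. LAMB3, a chain of the epithelial laminin to which ITGB4 with ITGA6 binds, was higher by 0.69 ± 0.10 (limma adjusted p = 0.000509). With pemetrexed in Lo cells 4 of these 11 genes were called, where 10.7% of all genes were, with LAMB3 higher by 0.49 ± 0.10 and LAMB1, LAMA4 and LAMC1 lower. Of 16 collagen genes 3 were called between treated Lo and treated Hi cells, where 22.3% of all genes were, and they were lower: COL5A2 (-0.37 ± 0.09), COL8A1 (-0.78 ± 0.20) and COL18A1.

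Of 28 genes of the adhesion complex, which ties the integrin tails to actin, 12 were called between treated Lo and treated Hi cells, 5 higher and 7 lower, where 22.3% of all genes were. The kindlins, which activate integrins by binding the beta tail, differed in both directions. FERMT1 had 9.80, 10.05 and 9.96 in Lo pemetrexed arrays, against 8.07, 8.23 and 8.71 in Hi pemetrexed arrays, and the groups were far apart (1.60 ± 0.29, limma adjusted p = 0.00213). FERMT3 was higher by 0.40 ± 0.08, and FERMT2 was lower by -0.36 ± 0.11 (limma adjusted p = 0.0271). The tensin genes were also split, with TNS1 higher (0.70 ± 0.17) and TNS3 lower (-0.79 ± 0.14), and KANK2 (-0.91 ± 0.16) and PTK2, which encodes focal adhesion kinase (-0.56 ± 0.11), were lower.

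Of 12 membrane partners of integrins 6 were called in the same comparison, 2 higher and 4 lower, where 22.3% of all genes were. SLC3A2, whose protein binds beta tails and also carries amino acid transporters, was higher by 0.87 ± 0.10, and the tetraspanin CD9 was lower by -0.61 ± 0.12. Of 6 measured partners of the hemidesmosome 2 were called, where 22.3% of all genes were. LAMB3, already counted among the laminin and nidogen genes, was higher and DST, which encodes a plakin, was lower (-0.50 ± 0.14). CD151, which was not called, is on both partner lists. On the 10 arrays, where 27.7% of all genes were called, 3 of 15 other subunits and 9 of 20 RGD and matricellular ligands were called. So were 8 of 11 laminins and nidogens, 5 of 16 collagens and 14 of 28 adhesion complex genes. The counts were 7 of 12 for membrane partners and 2 of 6 for hemidesmosome partners.

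**Figure D4:**
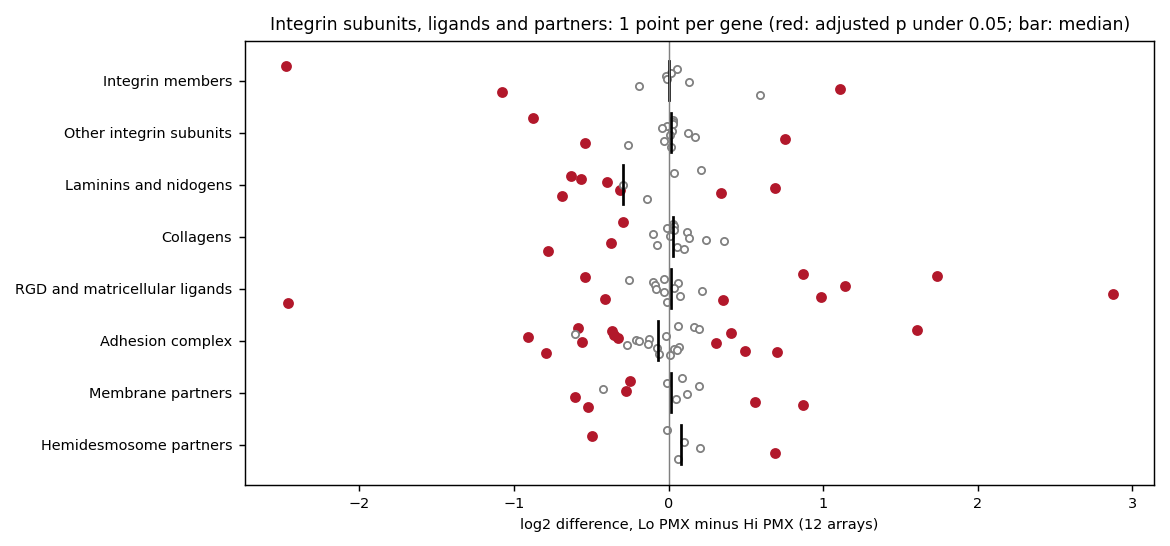
Log2 difference between Lo pemetrexed and Hi pemetrexed arrays on 12 arrays (horizontal axis) for the 10 integrin members and for lists of other subunits, ligands and partners, with 1 point a gene. Red points have an adjusted p under 0.05 and bars mark list medians, which lie between -0.29 for laminins and nidogens and 0.08 for hemidesmosome partners.

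Most endothelial markers were lower in treated Lo than in treated Hi cells, as ITGA10 and ITGB4 were. Of 12 markers 10 were lower in Lo pemetrexed than in Hi pemetrexed arrays on 12 arrays and on 10 arrays and 0 were higher, where 22.3% and 27.7% of all genes were called, PECAM1 by -1.09 ± 0.20 and KDR by -2.16 ± 0.52. The mean of the 12 markers ranged from 10.13 to 10.26 in Lo pemetrexed and 11.07 to 11.27 in Hi pemetrexed arrays. It ranged from 10.50 to 11.12 in Lo control and 10.52 to 11.29 in Hi control arrays. The highest Lo control mean and the lowest Hi control mean were those of the arrays out of place. Between controls 0 of the 12 were called on 12 arrays, where 0% of all genes were. On 10 arrays 6 were lower in Lo controls and 0 higher, where 7.17% of all genes were called. Of 10 epithelial and lung carcinoma markers 1 was called between treated Lo and treated Hi cells on 12 arrays, EPCAM at 0.38 ± 0.12. On 10 arrays 3 of these markers were called, with KRT7 (0.33 ± 0.06) and KRT8 (0.23 ± 0.07) also higher. Their mean stayed between 8.03 and 8.19 on all 12 arrays. Of 10 fibroblast and smooth muscle markers 2 were higher in treated Lo cells on 12 and on 10 arrays, and their mean ranged from 6.97 to 7.03 in Lo pemetrexed arrays, 6.87 to 6.91 in Lo control arrays, 6.76 to 6.94 in Hi pemetrexed arrays and 6.80 to 6.96 in Hi control arrays. Of 7 leukocyte markers 1 was called on 12 arrays, LYZ, which was lower by -0.74 ± 0.13, and 2 on 10 arrays, with CD68 higher by 0.32 ± 0.07. PTPRC, the common leukocyte antigen, stayed between 4.05 and 4.21 on all 12 arrays. The part of these shifts in the integrin results was not tested, and in bulk RNA fewer cells of a kind and less RNA per cell cannot be told apart.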

How the data were processed

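Total RNA of EA.hy 926 cells was purified with Qiagen RNeasy and labelled with an Affymetrix Terminal Labeling kit, per the labels' protocols. The deposited log2 values per probe set were made by the authors with RMA in Partek 6.5, per the submitters' processing notes. RMA settings are not given in the sources used here. RMA normalizes arrays to each other, so a shift shared by most genes may not show.

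The table held 33297 probe sets on 12 arrays. Genes were named from the array's annotation where a probe set had 1 symbol (19460 probe sets), updated by Entrez ID through RefSeq (GRCh38.p14, 19429 found). The brightest probe set was kept for the 769 genes with several, giving 18417 genes. One mean per group was fitted with lmFit and eBayes of limma 3.58.1 (R 4.3.3), with 5 contrasts and Benjamini-Hochberg adjustment over all genes in each. The number of arrays limits the precision, and dim genes were kept. The code was tested on simulated data.

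The labels number replicates 1 to 3 in each group. On 10 arrays all 13 same-numbered pairs had deviations from the group means that correlated over 0.1 across genes (0.115 to 0.543), as far as 2 controls a group allow, so blocked results are given there. On 12 arrays 11 of 18 did. Among arrays of other groups, 8 of the 10 arrays correlated best with one of their own number, and 5 of the 12. Deviations of 2 arrays in 1 group mirror each other, so the pairs are not independent. The alternatives are listed in the closing section. Members, lists and alternatives, the 10-array fit included, were chosen with earlier results of these data known. Named genes are the 10 members and up to 4 called genes with the smallest p per list and comparison on 12 or 10 arrays. The 3 nearest patterns are named for members whose group means span at least 0.5. Some cell type markers, called or not, and the called neighbours on the chromosomes are named too. So are CD151, which is on both partner lists, and the kindlin gene FERMT2.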

Additional observations from a re-analysis of the deposited data

Results flagged for a closer look

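For ITGA10 and ITGB3 the response to pemetrexed differed between Lo and Hi cells by the test of the difference itself, on the 10 arrays. Subtracting the Hi difference from the Lo difference gave -0.96 ± 0.16 on the log2 scale for ITGA10 (limma adjusted p = 0.00523) and 0.51 ± 0.10 for ITGB3 (limma adjusted p = 0.0151). For ITGA10 all 3 Lo pemetrexed arrays lay below all Lo controls, and for ITGB3 all 3 lay above them. On 12 arrays neither interaction passed. The 10 arrays hold 2 controls for each folate level. The arrays left out were picked by their expression in these same data, and the 10-array p-values do not account for that choice.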

How the results depend on the processing

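The members' differences and the counts of members and of all genes called were recomputed under 21 other settings (20 for the interaction), while lists of other genes were run on 12 arrays, 10 arrays and 10 arrays with the block. The settings were an intensity trend, no moderation, quantile normalization, genes with a mean of at least 5, the mean of all probe sets of a gene, the replicate block, the 10 arrays without and with that block, only the 2 groups compared (not for the interaction), and 12 fits that each left out 1 array. Of the 10 members, ITGA10, ITGB3 and ITGB4 stayed called between treated Lo and treated Hi cells under all 21, and no call of a member turned its direction in any comparison. For pemetrexed in Lo cells, 2 members passed with an intensity trend and 2 among genes with a mean of at least 5 (ITGA10 and ITGB3, adjusted p = 0.0478 to 0.0483), 1 with quantile normalization (ITGB1) and 1 with only the 2 groups compared (ITGA10). On the 10 arrays 2 passed, and 6 with the replicate block. Leaving out 1 array gave 0 to 3. They were ITGB3 without Lo control replicate 1, ITGA10 and ITGB3 without Lo control replicate 2, ITGA10 without Hi control replicate 1, and ITGA10, ITGB1 and ITGB3 without Hi control replicate 3. For the interaction 2 passed on the 10 arrays, with or without the replicate block. Leaving out 1 array gave 0 to 1, with ITGB3 called without Lo control replicate 1 and ITGA10 without Hi control replicate 1. Between controls 3 passed on the 10 arrays and 4 with the replicate block, and between treated cells 5 passed with it. ITGB8 passed between treated cells in 3 settings, those with 10 arrays and that with 2 groups. In Hi cells 0 members passed in any setting.

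Counts over all genes moved as well. For pemetrexed in Lo cells 1978 genes were called, 1262 without moderation, 3385 on the 10 arrays with the replicate block, and 1170 to 2563 leaving out 1 array. Counts under 1978 by over 1.5 times came without Lo pemetrexed replicates 1 (1282) or 3 (1170) or Lo control replicate 3 (1210). Between treated cells 4107 were called, and 6554 with 10 arrays and the block. Between controls 0 were called, 1320 on the 10 arrays and 2422 with the block. For the interaction 886 were called, 291 without moderation, 1738 on the 10 arrays with the block, and 443 to 956 leaving out 1 array. The cause of these shifts was not tested. With the replicate block on 12 arrays no member's call changed, and 994 genes were called for the interaction.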
